A study of Mus musculus with 6 samples.

Results

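The genes examined here are 10 members of the insulin signaling pathway and of the forkhead transcription factors that it controls in liver: the insulin receptor *Insr*, the docking proteins *Irs1* and *Irs2*, the regulatory subunit *Pik3r1* of phosphoinositide 3-kinase (PI3K), the kinases *Akt1* and *Akt2*, the factors *Foxo1*, *Foxo3* and *Foxo4*, and *Foxa2*. They were chosen by name, with earlier results of these data known, out of 54115 annotated genes. Of the 10, 9 had enough reads to be tested, among 12524 tested genes in all. RNA was sequenced from the livers of 3 wild-type (WT) and 3 *Sirt7* knockout (KO) males, all 24 months old and all taken after a fast of 16 h. SIRT7 is a nuclear enzyme that removes acyl groups from lysines, and its gene was lost from the germ line in the KO mice, which were littermates of the WT mice on a C57BL/6J background. The study had measured glucose and insulin tolerance in such mice, and the RNA-seq asks which liver genes differ with the deletion. Each mouse gave between 9994860 and 13424776 assigned reads.

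Insulin bound to its receptor leads to tyrosine phosphorylation of IRS proteins, which recruit PI3K through its p85 regulatory subunit. The lipid made by PI3K brings Akt to the membrane, where it is activated, and Akt then phosphorylates FOXO factors, which leave the nucleus. In the fasted liver, where insulin is low, FOXO proteins sit in the nucleus and drive genes of gluconeogenesis together with *Irs2* itself, and *Foxa2* works alongside them on genes of fasting metabolism. Most of this regulation acts on phosphorylation and location of proteins, which RNA-seq does not measure.

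Because *Irs2* was the member with the largest difference, the 250 bases upstream of its start are shown with those of *Irs1*, its paralog, and of *Igfbp1*, a classical insulin-repressed gene. The bases are from RefSeq (GRCm38.p6), 5′ to 3′ on the strand of the gene, and capitals mark the insulin response core CAAAACA or its reverse complement TGTTTTG. The *Irs2* window is chr8:11008930-11009179 on the minus strand.
Irs2: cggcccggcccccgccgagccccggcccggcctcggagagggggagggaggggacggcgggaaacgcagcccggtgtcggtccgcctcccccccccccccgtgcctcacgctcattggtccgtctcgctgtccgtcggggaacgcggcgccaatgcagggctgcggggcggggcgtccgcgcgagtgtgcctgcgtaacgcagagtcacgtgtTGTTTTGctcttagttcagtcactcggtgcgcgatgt
The *Irs1* window is chr1:82291440-82291689 on the minus strand.
Irs1: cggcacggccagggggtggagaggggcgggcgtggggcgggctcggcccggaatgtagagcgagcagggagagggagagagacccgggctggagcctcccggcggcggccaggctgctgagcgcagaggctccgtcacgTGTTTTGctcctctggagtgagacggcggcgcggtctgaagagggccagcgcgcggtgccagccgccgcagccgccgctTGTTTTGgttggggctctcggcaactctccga
The *Igfbp1* window is chr11:7197537-7197786 on the plus strand.
Igfbp1: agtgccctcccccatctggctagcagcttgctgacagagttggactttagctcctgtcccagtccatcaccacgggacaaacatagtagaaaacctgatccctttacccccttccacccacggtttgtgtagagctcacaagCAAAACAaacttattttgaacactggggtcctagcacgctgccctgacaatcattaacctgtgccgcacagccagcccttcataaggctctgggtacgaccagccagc
The core lay 37 bases before the RefSeq start of *Irs2*, 111 and 32 bases before that of *Irs1*, and 108 bases before that of *Igfbp1*. In the annotation used for the counts, *Irs2* starts further downstream, at 11008458 on the minus strand. The core is farther from that start. Of 15 promoters found for 8 members (*Insr* and *Foxo4* had none in the table), 2 held this core, compared with 5.56% of 32851 promoter windows of the same length. The forkhead motif GTAAACA, with its reverse complement TGTTTAC, occurred in 1 of the 15, in an *Akt1* promoter at 161 bases before the start, and in 3.17% of all windows. Both strands were searched, the 2 motifs share no whole match, and a match of letters is a description and not a binding site.

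Levels were first compared between members per transcript length, in TPM (the reads of a transcript divided by its length and scaled to the same total for each mouse). Over the 6 mice, *Insr* was at 33.5 ± 4.94 TPM (SD, n = 6), followed by *Akt2* at 23.0 ± 1.90 and *Foxa2* at 11.2 ± 2.87. *Pik3r1* (6.83 ± 2.25), *Akt1* (5.38 ± 1.23), *Foxo1* (3.57 ± 0.79), *Irs2* (2.47 ± 1.52) and *Foxo3* (2.01 ± 0.34) came next. The order from *Foxa2* to *Foxo3* was loose, since the ranges over mice of all neighbours in it overlapped. *Irs1* (0.343 ± 0.135) and *Foxo4* (0.237 ± 0.124) were the least abundant, and their ranges overlapped as well. The ranges of *Insr* and *Akt2*, of *Akt2* and *Foxa2*, and of *Foxo3* and *Irs1* did not overlap. *Akt2*, the main Akt of insulin action in liver, was thus the more abundant of the 2 kinases, and *Foxo1* the most abundant of the 3 FOXO genes. *Irs2* ranked above *Foxo3* in WT mice and below it in *Sirt7* KO mice.

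The first place of *Insr* rested on 1 transcript that does not encode the receptor. ENSMUST00000139504.1, a retained-intron transcript of 1675 bases, carried 85.9% of the *Insr* TPM, because its short length turns a similar number of reads into more TPM than the full-length mRNA of 9355 bases. It consists of 3 exons and runs 278 bases into the intron after the third. When protein-coding transcripts alone were counted, *Insr* was at 4.53 ± 0.53 TPM (SD, n = 6) and stood below *Akt2* (22.0 ± 2.21), *Foxa2* (10.9 ± 2.80) and *Akt1* (4.98 ± 0.73). *Pik3r1* went to 2.81 ± 0.71 in the same count and stood below *Foxo1* (3.57 ± 0.79).

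The genotypes were then compared on gene counts in edgeR, in CPM (the reads of a gene scaled to a common effective library size). A gene was called at an adjusted p under 0.05 and a fold change over 1.5, which 1 of 12524 genes (0.00798%) passed. None of the 9 tested members passed, and 2 of them, *Irs2* and *Foxo1*, both lower in *Sirt7* KO mice, had an unadjusted p under 0.05 (22.2%, beside 11.3% of all tested genes, or 4.78% that were lower). DESeq2 called 1 member, *Irs2*, beside 1.78% of 14348 genes, or 1.93% of 12727 genes with transcript length offsets. The median log2 fold change of the 9 was -0.07, compared with -0.01 over all tested genes, and 3 were positive and 6 negative (49.3% and 50.7% of all tested genes). Values of the 2 genotypes did not overlap for *Irs2* and *Foxo1*, which were lower in *Sirt7* KO mice, and for *Akt2*, which was higher, while 16.8% of all tested genes had no overlap, 8.09% with lower and 8.74% with higher values.

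**Figure D1:**
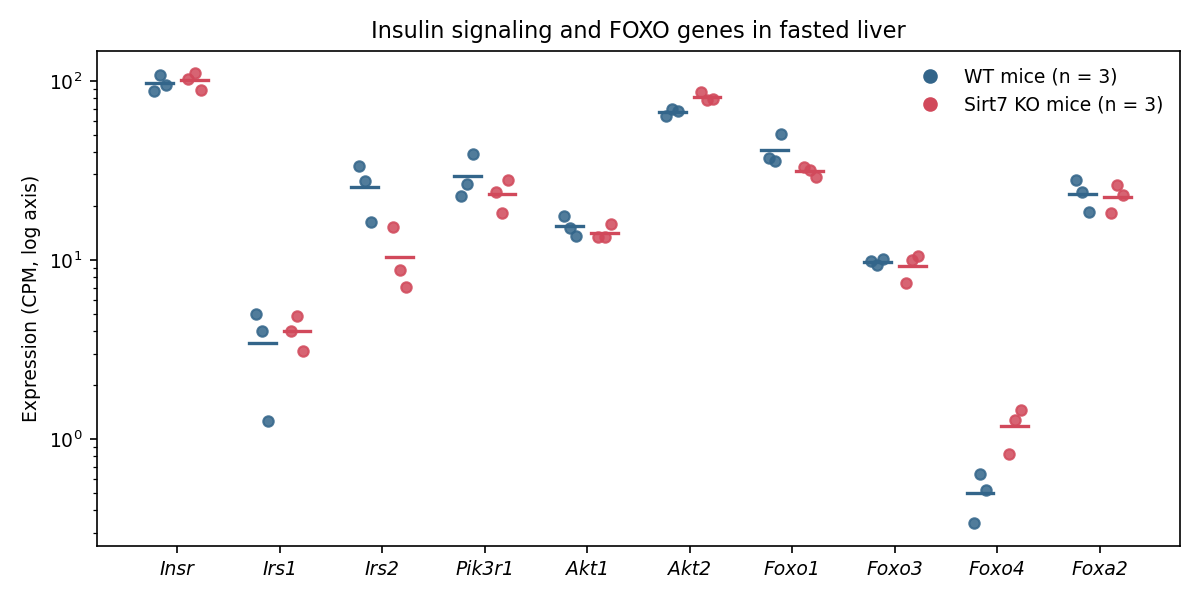
Expression of the 10 members in each mouse, in CPM on a log axis, with WT mice (n = 3) and *Sirt7* KO mice (n = 3) side by side and a line at each mean. Points of the genotypes stand apart for *Irs2* (7.03 to 15.2 CPM in *Sirt7* KO mice, 16.2 to 33.4 in WT mice), *Foxo1*, *Akt2* and *Foxo4*, and mix for the other 6.

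The insulin receptor gene, at which the pathway starts, had similar counts in both genotypes when all its transcripts were summed. *Insr* (ENSMUSG00000005534.10, chromosome 8, 3122061 to 3279617, GRCm38) was at 87.9, 107 and 95.4 CPM in WT mice and at 103, 110 and 89.3 CPM in *Sirt7* KO mice. The values of the genotypes were intermingled. These counts include the retained-intron transcript, which took 44.3% to 59.9% of the reads. Protein-coding transcripts alone were at 4.77 ± 0.16 TPM in WT and 4.28 ± 0.71 TPM in *Sirt7* KO mice (SD, n = 3 each), a difference that was not tested. The log2 fold change was 0.06 (SE 0.15, 95% interval -0.28 to 0.39) with an adjusted p of 0.93 in edgeR, and it was -0.05 when libraries were scaled by total counts, which moved the median of all genes to -0.11.

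*Irs2* (ENSMUSG00000038894.7, chromosome 8, 10984681 to 11008458), the docking protein that carries much of the fasting and early refeeding signal in liver, was at 33.4, 27.5 and 16.2 CPM in WT mice. In *Sirt7* KO mice it was at 15.2, 8.79 and 7.03 CPM. All 3 *Sirt7* KO mice lay below all 3 WT mice, although the highest of them, replicate 1, was only just below WT replicate 3. These values rest on 394, 303 and 219 reads in WT mice and 166, 83 and 73 reads in *Sirt7* KO mice. The mean was 10.3 ± 4.30 CPM in *Sirt7* KO mice and 25.7 ± 8.72 CPM in WT mice (SD, n = 3 each), or 40.3% of the WT mean. The log2 fold change was -1.31 (SE 0.34, 95% interval -2.07 to -0.54), with an adjusted p of 0.20 in edgeR's quasi-likelihood test, rank 237 among the genes tested. The exact two-sided permutation test of 3 against 3 mice gave p = 0.1, the smallest it allows, here as for *Foxo1* and *Akt2*. The call depended on the tool and on 1 mouse. DESeq2 gave an adjusted p of 0.0095, or 0.034 with transcript length offsets, and edgeR gave 1.2e-06 with no filter on low counts (2.27% of 27881 genes called) and 0.042 without *Sirt7* KO replicate 1. Without that mouse the log2 fold change was -1.69, and edgeR called 252 of 12921 genes (1.95%).

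*Irs1* (ENSMUSG00000055980.2, chromosome 1, 82233101 to 82291416), the paralog of *Irs2*, was sparse. It was at 5.0, 3.99 and 1.26 CPM in WT mice and at 4.03, 4.87 and 3.08 CPM in *Sirt7* KO mice. WT replicate 3 was the lowest of all and the other mice overlapped. The log2 fold change of 0.23 (SE 0.48, 95% interval -0.86 to 1.33) was within the spread between mice, with an adjusted p of 0.90 in edgeR, and turned to -0.17 without WT replicate 3. Of the 31-base words in *Irs1* transcripts, 30.6% also occur in *Gm9747*, a gene on the other strand. The counting used no strand, so reads of the 2 genes cannot be told apart in the shared stretch. *Gm9747* was given 44, 64 and 77 reads in WT mice and 59, 40 and 38 reads in *Sirt7* KO mice, compared with 59, 44 and 17 and with 44, 46 and 32 for *Irs1*. With the reads of both added, the log2 fold change was -0.01 (SE 0.24), an alternative chosen after seeing the data.

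*Pik3r1* (ENSMUSG00000041417.15, chromosome 13, 101680563 to 101768217), the regulatory subunit that binds the IRS proteins, was at 22.8, 26.4 and 39.3 CPM in WT mice and at 23.8, 18.2 and 28.0 CPM in *Sirt7* KO mice. The genotypes overlapped, with the highest value in WT replicate 3 and the lowest in *Sirt7* KO replicate 2. The log2 fold change was -0.34 (SE 0.24, 95% interval -0.88 to 0.20) and the adjusted p 0.65 in edgeR. Without WT replicate 3 it was -0.07.

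Neither Akt kinase passed the test. *Akt1* (ENSMUSG00000001729.14, chromosome 12, 112653821 to 112674884) was at 17.5, 15.2 and 13.7 CPM in WT mice and at 13.4, 13.5 and 15.8 CPM in *Sirt7* KO mice, with overlap. Its log2 fold change was -0.12 (SE 0.18, 95% interval -0.52 to 0.28, adjusted p = 0.85 in edgeR). *Akt2* (ENSMUSG00000004056.15, chromosome 7, 27591552 to 27640826) was at 63.6, 69.6 and 67.5 CPM in WT mice and at 86.9, 78.2 and 79.3 CPM in *Sirt7* KO mice. The lowest *Sirt7* KO value exceeded the highest WT value, but by a small gap. The mean was 81.5 ± 4.74 CPM in *Sirt7* KO and 66.9 ± 3.05 CPM in WT mice (SD, n = 3 each), 122% of WT, with a log2 fold change of 0.28 (SE 0.13, 95% interval -0.01 to 0.58) and an adjusted p of 0.46 in edgeR. The gene shares 13.3% of its words with the pseudogene *Akt2-ps*, which was given 0 to 5 reads per mouse, and the log2 fold change was 0.28 with those added.

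**Figure D2:**
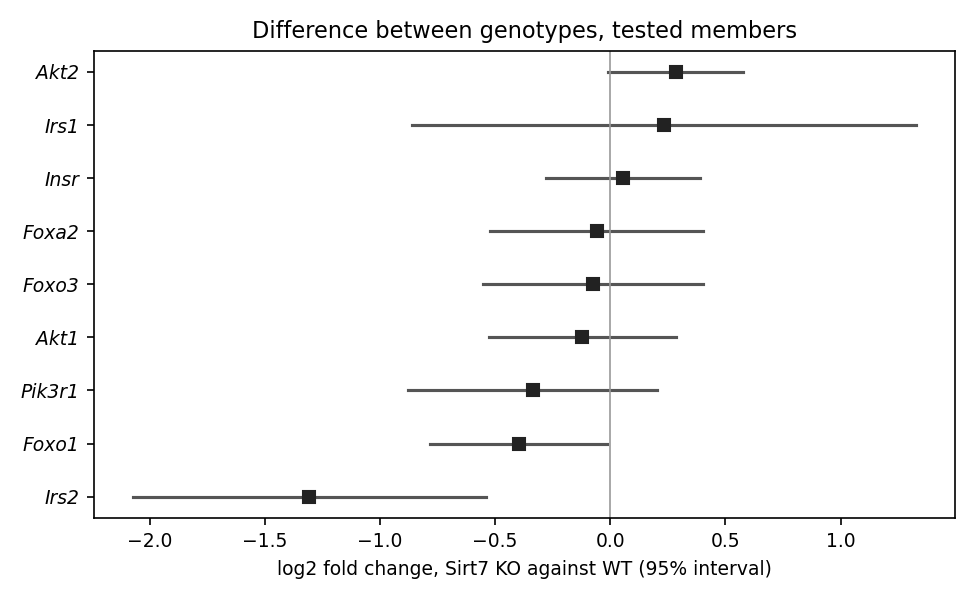
Log2 fold change of the 9 tested members, *Sirt7* KO against WT, with the 95% interval from edgeR (3 mice per genotype). The intervals of *Irs2* (-2.07 to -0.54) and *Foxo1* (-0.78 to -0.01) lie below 0, and the widest is that of *Irs1*.

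*Foxo1* (ENSMUSG00000044167.6, chromosome 3, 52268336 to 52353221), the main FOXO of hepatic glucose output, was at 37.3, 35.7 and 50.8 CPM in WT mice and at 33.1, 31.8 and 29.1 CPM in *Sirt7* KO mice. The *Sirt7* KO values were close together and all below the WT values, of which replicate 3 stood well above the other two. The log2 fold change was -0.40 (SE 0.17, 95% interval -0.78 to -0.01), with an adjusted p of 0.42 in edgeR, and *Sirt7* KO mice had 75.9% of the WT mean. Without WT replicate 3 it was -0.21, no longer at an unadjusted p under 0.05, and that mouse therefore set much of the size. Nor was the unadjusted p of *Foxo1* under 0.05 with length offsets in edgeR, or in DESeq2 with or without them. *Foxo1* shares 7.12% of its words with the antisense gene *Gm20402* (0, 6 and 14 reads in WT mice, 8, 9 and 21 in *Sirt7* KO mice), and with these reads added the unadjusted edgeR p was no longer under 0.05.

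*Foxo3* (ENSMUSG00000048756.11, chromosome 10, 42181841 to 42276755) was at 9.82, 9.34 and 10.1 CPM in WT mice and at 7.42, 9.96 and 10.5 CPM in *Sirt7* KO mice. The genotypes overlapped, and the log2 fold change was -0.07 (SE 0.21, 95% interval -0.55 to 0.40, adjusted p = 0.94 in edgeR). *Foxo4* (ENSMUSG00000042903.8, X chromosome, 101254528 to 101260873) had 4, 7 and 7 reads in WT mice and 9, 12 and 15 reads in *Sirt7* KO mice, and was left out of the test by the filter on low counts. The *Sirt7* KO counts were all higher, on a very small number of reads. Fitted with no filter, its log2 fold change was 1.24 (SE 0.82, 95% interval -0.38 to 2.85, adjusted p = 0.75 in edgeR). The gene passed the filter in 4 of the fits that left out 1 mouse, with log2 fold changes of 1.02 to 1.44. It was at an unadjusted p under 0.05 in the fit without *Sirt7* KO replicate 1 (1.44, adjusted p = 0.29 in edgeR). It passed only through *Sirt7* KO mice, the genotype where it was higher, so these 4 fits give no support for a difference.

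*Foxa2* (ENSMUSG00000037025.11, chromosome 2, 148042877 to 148046969), a pioneer factor of hepatocytes that is also an Akt target, was at 28.0, 24.0 and 18.4 CPM in WT mice and at 18.3, 26.3 and 23.0 CPM in *Sirt7* KO mice. Both genotypes covered nearly the same range. The log2 fold change was -0.06 (SE 0.20, 95% interval -0.52 to 0.40, adjusted p = 0.95 in edgeR), and it was positive, 0.12 to 0.21, in the 3 fits that used transcript lengths. Its relatives *Foxa1* (-0.02) and *Foxa3* (-0.08) were likewise near 0.

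Shares of isoforms were compared for the 4 members with 2 or more transcripts above 10% of the reads, *Insr*, *Akt2*, *Pik3r1* and *Foxo3*. None of the 9 shares separated the genotypes, and the smallest exact permutation p was 0.2 (adjusted p 0.9), where 3 mice against 3 cannot go below 0.1. The full-length *Insr* mRNA took 54.4%, 47.6% and 55.3% of the gene's reads in WT mice. In *Sirt7* KO mice its share was 54.3%, 40.1% and 42.7%. It was lowest in *Sirt7* KO replicates 2 and 3, and the genotypes overlapped through replicate 1. The receptor exists in forms with and without a small exon of 36 bases, and the 1 annotated transcript that had it was a fragment with at most 2.1 reads, so the 2 forms could not be separated here. For *Pik3r1*, the transcript of 724 codons, which encodes p85α, had 125 to 382 reads per mouse and that of 454 codons had 0 to 18.8. In *Akt2*, all 3 transcripts above 10% encode the same 481 codons, and the one starting at 27591746 was at 0 reads in WT replicate 2 and at 92.6 to 149 reads in the other mice. These shares are estimates by Salmon of how reads divide between transcripts with much sequence in common.

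**Figure D3:**
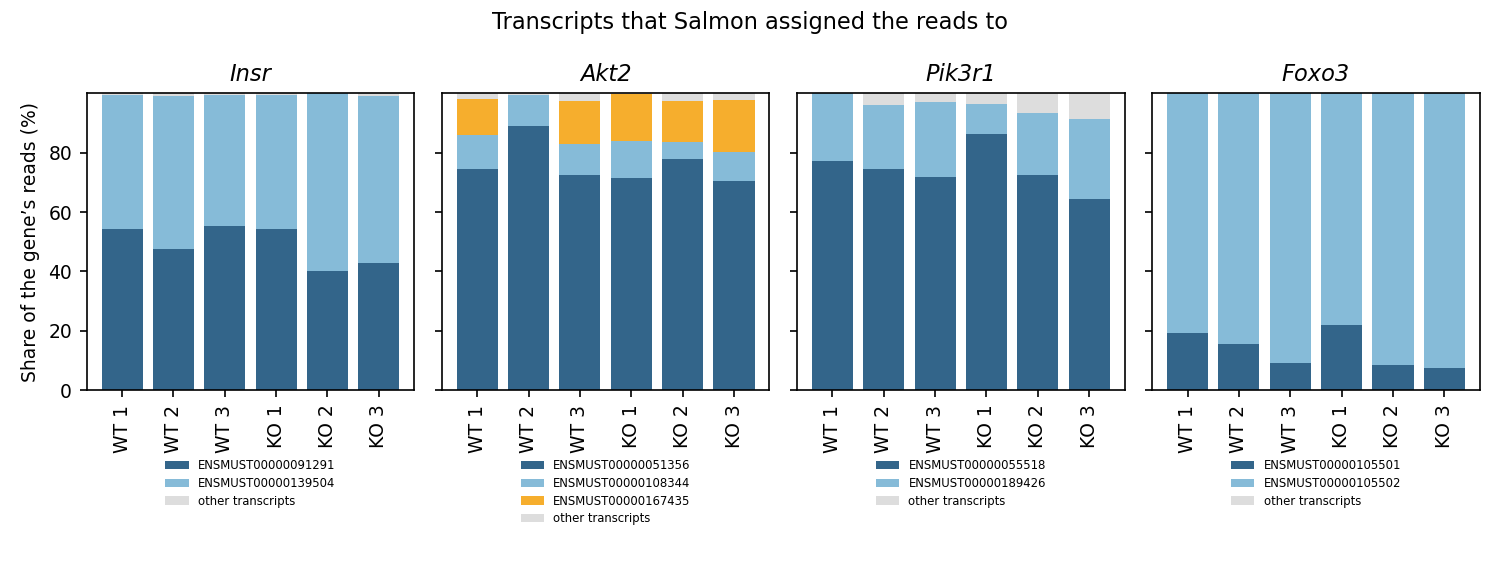
Share of each gene's reads (%) that Salmon assigned to each transcript, as stacked bars per mouse, for the 4 members with 2 or more transcripts above 10%. Every share overlaps between the genotypes, with full-length *Insr* (ENSMUST00000091291) between 40.1% and 55.3%.

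Beyond the members, 121 genes in 9 lists of the pathway were examined by role, of which 110 were tested. None was called. At an unadjusted p under 0.05 in edgeR, 14 stood out (12.7%, beside 11.3% of all tested genes), of which 8 were higher with the deletion and 6 lower (6.54% and 4.78% of all tested genes). The median log2 fold change of the 110 genes was -0.06. Values of the genotypes had no overlap for 8 of the 110 with higher and 7 with lower values. Among all tested genes these shares were 8.74% and 8.09%, so a lack of overlap does not set these lists apart. The smallest adjusted p was 0.17, for *Bcl6*.

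At the receptor, none of 11 tested genes had an unadjusted p under 0.05 and the median was 0.08. *Igf1r*, the receptor for insulin-like growth factor, had a log2 fold change of 0.63 (SE 0.46) at 0.817 to 2.97 CPM. *Socs3*, a feedback inhibitor that binds the receptor and IRS proteins, had 0.69 (SE 0.34, adjusted p = 0.49 in edgeR), and *Ptpn1*, the phosphatase that removes the phosphates from the receptor, had -0.14 (SE 0.19). The adaptors Grb10 and Grb14, which block the receptor kinase, stood at -0.35 (SE 0.56) and 0.18 (SE 0.15), and *Grb10* was positive with length offsets. *Enpp1*, a membrane protein that dampens the receptor, was the one gene of the list without overlap, at 25.3, 23.4 and 27.8 CPM in *Sirt7* KO and 32.4, 32.1 and 28.8 CPM in WT mice (log2 fold change -0.29, adjusted p = 0.50). *Igf2r*, which clears insulin-like growth factor 2, was at 0.51 (SE 0.31), and at -1.56 with length offsets in edgeR. Per length it was at 9.53, 0.677 and 0.453 TPM in WT mice and at 0.846, 1.29 and 0.829 TPM in *Sirt7* KO mice. WT replicate 1 alone stood far above the rest.

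No adaptor (7 tested, median -0.24) and no other PI3K subunit (6 tested, median -0.01) had an unadjusted p under 0.05. Among adaptors the smallest p belonged to *Sos1*, *Gab1* and *Sh2b1*, at log2 fold changes of -0.40, -0.48 and -0.20, and among PI3K subunits to *Pik3cb* (0.46), *Pik3c3* (0.19) and *Pik3r2* (-0.11). *Pik3ca*, the catalytic subunit p110α, which was named after its values were seen, gave opposite answers on counts and per length. It was at 8.98, 10.7 and 10.7 CPM in WT mice and at 11.4, 6.36 and 9.44 CPM in *Sirt7* KO mice, with overlap (log2 fold change -0.16, SE 0.25, adjusted p = 0.86 in edgeR). Per length it was at 1.31, 1.35 and 1.40 TPM in WT mice but at 4.26, 3.20 and 4.19 TPM in *Sirt7* KO mice, with no overlap, which means that Salmon placed its reads on shorter transcripts in the latter. With length offsets the log2 fold change was 1.59 in DESeq2 (adjusted p = 0.00012, a call) and 1.58 in edgeR (adjusted p = 0.11). Of 9 tested phosphatases that oppose PI3K and Akt, 1 was lower at an unadjusted p under 0.05 (11.1%, beside 4.78% of all tested genes). *Ppp2cb*, a catalytic subunit of protein phosphatase 2A, was that gene (adjusted p = 0.40 in edgeR). It was at 3.57, 2.01 and 1.93 CPM in *Sirt7* KO mice and at 5.59, 4.08 and 4.22 CPM in WT mice, with no overlap. The other catalytic subunit gene, *Ppp2ca*, was far more abundant and had -0.16 (SE 0.13). It was also lower with no overlap, by a narrow gap (at most 117.2 CPM in *Sirt7* KO and at least 117.4 CPM in WT mice). *Inpp5d*, a lipid phosphatase of blood cells, had -0.93 with a wide SE of 0.71.

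Among the 8 tested activators and pseudokinase inhibitors of Akt (median 0.15), *Pdpk1*, the kinase that activates Akt, was at -0.16 (SE 0.25). The inhibitor *Trib3* was at 0.29 (SE 0.26) and *Trib1* at -0.10 (SE 0.24). *Rictor* (0.20) and *Mlst8* (0.37), both subunits of TORC2, which also phosphorylates Akt, had no overlap between genotypes, though *Mlst8* was negative (-0.21 to -0.26) with transcript lengths. Of 15 tested Akt substrates and TORC1 genes, none had an unadjusted p under 0.05. In this list 13 were negative (beside 50.7% of all tested genes) and the median was -0.14. The smallest p in this list were those of *Gsk3b* (-0.31), *Rps6kb1* (-0.29) and *Rheb* (-0.19), which encode a kinase of glycogen metabolism, the S6 kinase and the activator of TORC1. *Gsk3b* and *Rheb* were lower with no overlap.

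Of 19 tested forkhead factors and partners of FOXO, 2 were lower at an unadjusted p under 0.05 (10.5%, beside 4.78% of all tested genes). In this list 15 were negative, beside 50.7% of all tested genes, and the median was -0.13. *Foxk1*, a forkhead repressor that insulin moves into the nucleus, was at 3.11, 2.44 and 3.85 CPM in *Sirt7* KO and 5.17, 5.99 and 5.84 CPM in WT mice (log2 fold change -0.85, adjusted p = 0.33 in edgeR). *Cebpb*, a bZIP factor of gluconeogenesis, was at 34.1, 11.1 and 5.01 CPM in *Sirt7* KO and 56.9, 68.1 and 28.1 CPM in WT mice. Here *Sirt7* KO replicate 1 lay above WT replicate 3, and the log2 fold change was -1.60 (SE 0.59, adjusted p = 0.36). *Hnf4a*, the hepatocyte factor, was at -0.44 (SE 0.20), *Ppargc1a*, a coactivator of FOXO1 in fasting, at -0.39 (SE 0.34), and *Sirt1*, a deacetylase of FOXO proteins, at -0.41 (SE 0.34).

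The 25 tested genes that FOXO raises in fasted liver went in no common direction, with 12 positive, 13 negative and a median of -0.04. *Igfbp1*, which binds insulin-like growth factors, was at 39.7, 26.4 and 7.71 CPM in *Sirt7* KO and at 81.6, 18.2 and 16.2 CPM in WT mice. The spread within each genotype was wide, and the log2 fold change of -0.65 (SE 0.69) turned to 0.51 without WT replicate 1. *Pck1* and *G6pc*, which encode enzymes of gluconeogenesis, were at -0.41 (SE 0.23, adjusted p = 0.55 in edgeR) and 0.01 (SE 0.39, adjusted p = 0.99).

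In the same list, 2 genes were higher and 2 lower at an unadjusted p under 0.05 (16% together, beside 11.3% of all tested genes). *Bcl6*, a transcriptional repressor of lipid metabolism genes, was at 34.0, 13.7 and 21.6 CPM in *Sirt7* KO mice and at 5.93, 9.89 and 3.18 CPM in WT mice (log2 fold change 1.88, SE 0.43, adjusted p = 0.17 in edgeR). *Sesn3*, a sestrin that promotes Akt activity through TORC2, was at 4.21, 5.62 and 8.38 CPM in *Sirt7* KO and 3.64, 2.09 and 2.07 CPM in WT mice (1.22, adjusted p = 0.27). *Bnip3*, a mitophagy receptor, was at 377, 278 and 271 CPM in *Sirt7* KO and 476, 493 and 526 CPM in WT mice (-0.69, adjusted p = 0.19). These 3 genes had no overlap between genotypes. The remaining gene, *Txnip*, a brake on glucose uptake that was named after its values were seen, was at -0.94 (adjusted p = 0.39) and overlapped.

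The list of genes that insulin raises in liver had the largest median, 0.41, with 12 of its 13 tested genes positive (beside 49.3% of all tested genes). At an unadjusted p under 0.05, 6 were higher and 1 was lower (beside 6.54% and 4.78% of all tested genes). The list was chosen with earlier results of these data known, so these counts describe it and do not test it. *Fasn*, fatty acid synthase, was at 67.8, 221 and 124 CPM in *Sirt7* KO mice and 39.6, 44.6 and 56.7 CPM in WT mice (log2 fold change 1.55, SE 0.37, adjusted p = 0.17 in edgeR). *Acacb*, an acetyl-CoA carboxylase, had 0.94 (adjusted p = 0.21) and *Elovl6*, a fatty acid elongase, had 0.89 (adjusted p = 0.19), also with no overlap. *Srebf1*, the gene of the lipogenic factor SREBP-1c, was at 67.8, 134 and 183 CPM in *Sirt7* KO and 35.4, 57.0 and 92.9 CPM in WT mice, with overlap (1.05, SE 0.40, adjusted p = 0.36). The other 3, named after their values were seen, all overlapped between genotypes. They were *Acly* (1.06, SE 0.34, adjusted p = 0.29 in edgeR) and *Thrsp* (2.29, SE 0.78, adjusted p = 0.32), both of lipogenesis, and malic enzyme *Me1* (-0.55, SE 0.20, adjusted p = 0.35). *Thrsp* was at 21.2, 239 and 100 CPM in *Sirt7* KO mice and at 10.8, 18.1 and 44.3 CPM in WT mice.

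**Figure D4:**
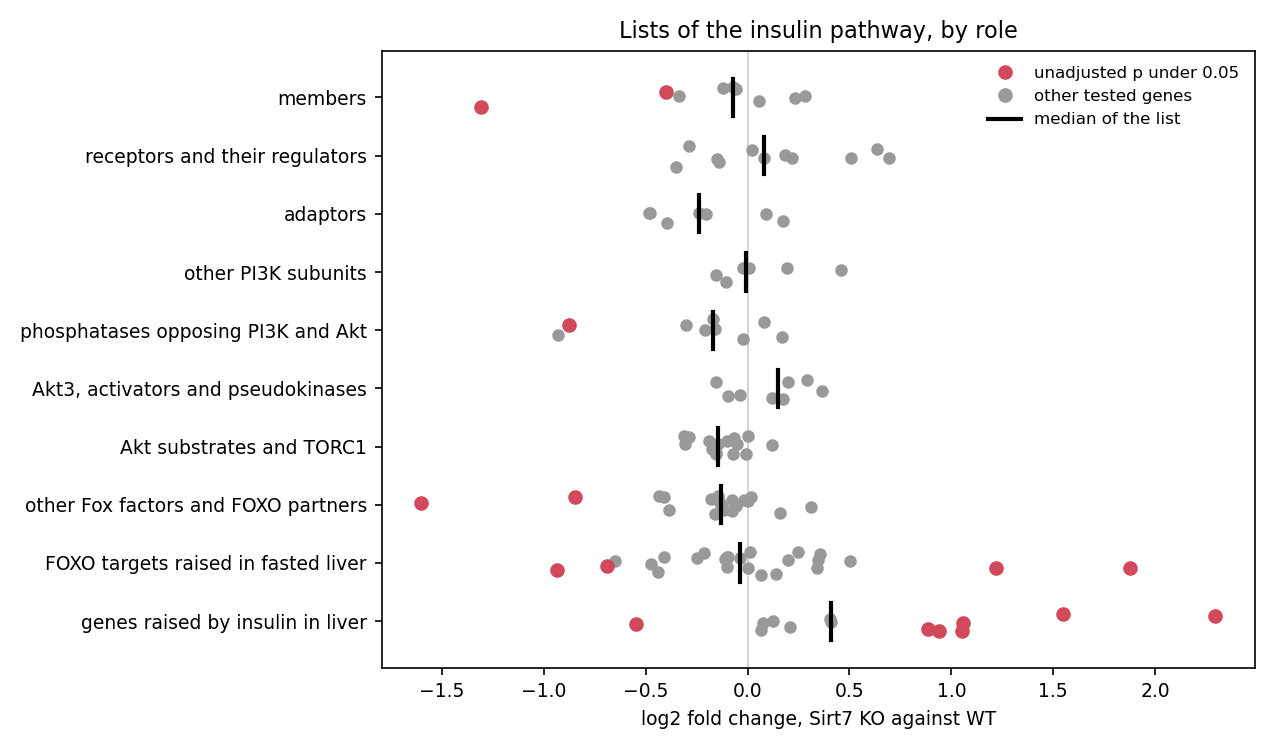
Log2 fold change, *Sirt7* KO against WT, of every tested gene in the 10 lists, with the median of each list as a bar and genes at an unadjusted p under 0.05 in red. Medians run from -0.24 for adaptors to 0.41 for genes raised by insulin, and *Irs2* is the leftmost member at -1.31.

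*Sirt7* KO replicate 1 was nearest to the WT mice for *Irs2*, *Cebpb*, *Fasn*, *Acly* and *Thrsp*, and the farthest from them for *Bcl6* and *Akt2*. Without it 8 genes of the lists were called (beside 252 of 12921 genes, 1.95%), namely *Acacb*, *Acly*, *Elovl6*, *Fasn* and *Thrsp* higher and *Bnip3*, *Cebpb* and *Txnip* lower. DESeq2 called 6 list genes with all mice (beside 1.78% of all genes), *Acacb*, *Acly*, *Bcl6*, *Elovl6* and *Fasn* higher and *Bnip3* lower. With length offsets it called 5 (beside 1.93%), *Acacb*, *Bcl6*, *Fasn* and *Pik3ca* higher and *Bnip3* lower.

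**Figure D5:**
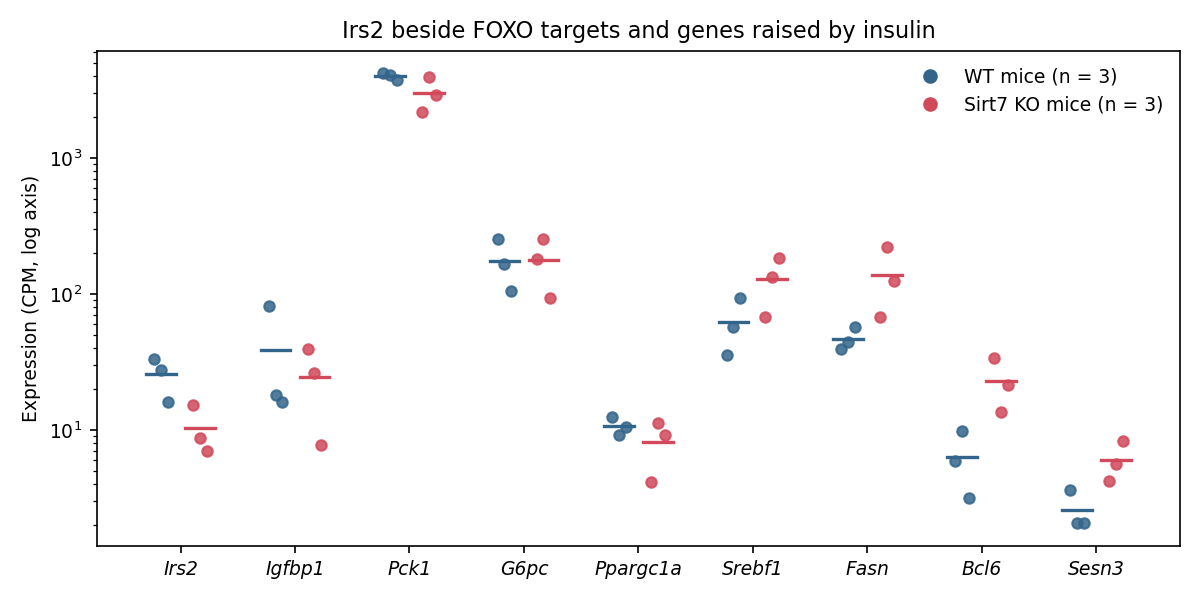
Expression of *Irs2*, of FOXO targets and of genes raised by insulin in each mouse, in CPM on a log axis, with lines at the means of WT and *Sirt7* KO mice (n = 3 each). *Irs2* lies lower and *Fasn*, *Bcl6* and *Sesn3* higher in all *Sirt7* KO mice, while *Pck1*, *G6pc* and *Igfbp1* overlap.

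The deleted gene itself was checked. *Sirt7* was at 28.6, 41.7 and 40.8 CPM in *Sirt7* KO and 55.2, 45.5 and 47.3 CPM in WT mice (log2 fold change -0.41, adjusted p = 0.42 in edgeR), and positive (0.70 to 0.81) in fits with transcript lengths. Reads on its full-length transcript were 124, 135 and 77.5 in *Sirt7* KO and 429, 381 and 408 in WT mice, lower in each *Sirt7* KO mouse, though not absent. The TPM of the gene was 34.7 to 68.0 in *Sirt7* KO and 27.3 to 34.4 in WT mice, and reads within the deleted part were not examined, so that the labels were not checked by the deletion itself. Hepatocyte markers summed to 47276 to 52149 CPM in WT and 48668 to 58461 CPM in *Sirt7* KO mice. Most of this sum was *Alb* and *Apoa1*. Of the 9 markers, 4 were positive and 5 negative. *Apoa1* (11564 to 12569 CPM in WT, 14608 to 16516 in *Sirt7* KO mice) and *Serpina1a* were higher with no overlap, beside 8.74% of all tested genes. In bulk liver, fewer cells of a type and less RNA per cell cannot be told apart. For all 8 marker lists (hepatocytes, endothelium, Kupffer cells, stellate cells, cholangiocytes, lymphocytes, neutrophils and adipocytes) the summed levels overlapped between genotypes, and none of the 45 tested markers had an unadjusted p under 0.05. Kupffer cell and macrophage markers summed to 54.3, 57.4 and 160 CPM in WT mice and to 140, 50.0 and 96.5 CPM in *Sirt7* KO mice, so that WT replicate 3 and *Sirt7* KO replicate 1 were the highest, and the part of this in the values of *Foxo1*, *Pik3r1* and *Irs2* was not tested. Adipocyte markers reached 41.0 CPM in WT replicate 2 and ranged from 3.08 to 26.6 CPM in *Sirt7* KO mice. Most of this sum was *Cidec*, the 1 tested gene of that list. It was at 40.6 CPM in WT replicate 2 and at 2.41 to 26.4 CPM in *Sirt7* KO mice. *Adipoq*, *Plin1*, *Lep* and *Slc2a4* had at most 6 reads in any mouse, so the sum follows 1 gene. *Ly6g* was the 1 marker at 0 in every mouse.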

How the data were processed

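Liver RNA of 6 mice was amplified with SMART-seq HT and made into Nextera XT libraries, which carry no strand. The authors trimmed reads with Trim Galore 0.6.5 and quantified them with Salmon 1.2.1 against transcripts of GRCm38; the annotation release is not given in the sources used here. They deposited, per mouse and transcript, an estimated count (not normalized, not always whole) and TPM, scaled to effective length and to a fixed total. The effective lengths were the same in all mice.

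Estimated counts were summed over the transcripts of each gene in GENCODE M21 and rounded; 1201 of 140992 transcripts had no gene there, with 0.303% to 0.492% of the reads. Genes were tested with edgeR 4.0.16 (quasi-likelihood, TMM, filterByExpr with minimum count 10) in R 4.3.3, with Benjamini-Hochberg adjustment over 12524 genes. The study's own tool, DESeq2 (1.42.0 here), with and without length offsets, and limma 3.58.1 on log2(TPM + 1) were alternatives. Single genes were compared by two-sided exact permutation of log2(CPM + 0.5) in R. Isoform shares were compared by two-sided exact permutation of the percentages in Python 3.11.15 (scipy 1.17.1). Mice of a genotype differed by more than sampling noise (chi-square per gene at least 16.9), so each counted as 1 sample.

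In a simulation of this comparison with 200 changed genes among 12524, edgeR recovered 26% of 2-fold and 78% of 4-fold changes, with 12 of 116 calls false. DESeq2 recovered 42% and 84%, with 34 of 160 false. Counts were drawn independently for each gene at its estimated dispersion, so differences between mice that many genes share were not simulated. The recovered percentages are therefore not the power in these data, where edgeR called 1 of 12524 genes.

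The members and lists were chosen with earlier results of these data known. Named genes were all members, *Sirt7*, a list of pathway genes, and up to 3 genes per list with the smallest edgeR p; values of 2 genes of these lists are not reported here. Depth and intervals cover counting error and the spread between these mice only.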

Additional observations from a re-analysis of the deposited data

How the results depend on the processing

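The direction of *Irs2*, *Foxo1*, *Akt2*, *Akt1* and *Pik3r1* held in every fit. The call of *Irs2* did not. The number of called members was 0 by edgeR and 1 with no filter on low counts, with DESeq2, with DESeq2 and length offsets, and at an unadjusted p under 0.05 with a fold over 1.5; it was 0 to 1 over fits that left out 1 mouse. Members at an unadjusted p under 0.05 went from 2 to 1 with length offsets, DESeq2, DESeq2 with length offsets or limma on TPM. They also went to 1 with the reads of overlapping genes added (chosen after seeing the data). *Irs2* was the member left in each of these fits, and *Foxo1* was lost. With 1 mouse left out the number was 1 to 3. Called list genes went from 0 to 10 with no filter, 6 with DESeq2 and 5 with DESeq2 and length offsets, and were 0 to 8 with 1 mouse left out, while list genes at an unadjusted p under 0.05 went from 14 to between 9 and 23. Over all genes, edgeR called 1 gene, 633 with no filter (of 27881), and 252 without *Sirt7* KO replicate 1, and DESeq2 called 256. The cause was not tested.

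With the replicate number as a block, 1 member (*Irs2*, log2 fold change -1.32, adjusted p = 0.058 in edgeR) had an unadjusted p under 0.05, 0 members and 0 list genes were called, and 41 of all genes were. The labels name no litter or day shared by mice of the same number. Deviations of same-numbered mice correlated at 0.065, 0.080 and -0.044, and those of the other pairs at -0.10 to 0.049. With 3 mice per genotype, these correlations cannot decide whether the numbers pair the mice.

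Signs turned for *Insr* (-0.046 with total counts), for *Irs1* (-0.0085 with overlapping reads added), for *Foxa2* (0.20 with length offsets in edgeR, 0.21 in DESeq2, 0.12 in limma), and, in the same 3 fits, for *Igf2r* (-1.56, -1.67, -0.58), *Mlst8* (-0.26, -0.25, -0.21), *Grb10* (0.79, 0.81, 0.31), *Pik3ca* (1.58, 1.59, 1.05) and *Sirt7* (0.80, 0.81, 0.70). *G6pc* turned with upper-quartile scaling (-0.0016), total counts (-0.12), limma (-0.059) and the block (-0.015). With 1 mouse left out, ranges crossed 0 for *Insr* (-0.014 to 0.14), *Irs1* (-0.17 to 0.61), *Foxo3* (-0.17 to 0.069), *Foxa2* (-0.20 to 0.084), *Foxa1* (-0.10 to 0.10), *Foxa3* (-0.52 to 0.22), *G6pc* (-0.35 to 0.38), *Igfbp1* (-1.18 to 0.51), *Pdpk1* (-0.36 to 0.013), *Pik3ca* (-0.35 to 0.043) and *Trib1* (-0.26 to 0.14). Isoform shares without overlap numbered 0, and 0 to 5 with 1 mouse left out (5 without *Sirt7* KO replicate 1). Differences in share then ranged, in percentage points, from -3.03 to 0.239 for *Akt2* ENSMUST00000108344.8, from -6.66 to 0.631 for *Foxo3* ENSMUST00000105501.1 (from -0.631 to 6.66 for ENSMUST00000105502.7), from -6.05 to 4.91 for *Pik3r1* ENSMUST00000055518.12 and from -7.75 to 0.672 for ENSMUST00000189426.1. Counting protein-coding transcripts alone changed the rank of 6 members by TPM. *Foxo4* (4 to 15 reads) did not pass the filter with all mice.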
